A study of Mus musculus with 16 samples.

Results

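The complement genes examined here are 9 genes of the complement system, *C1qa*, *C1qb*, *C1qc*, *C1ra*, *C1s1*, *C3*, *C4b*, *Cfd* and *Serping1*, taken as a list by symbol from the 49066 gene symbols quantified in brown adipose tissue (BAT). All 9 were found, as 22 transcripts. The tissue came from C57BL6/J mice that had eaten a high-fat diet (HFD, 60% of kcal from fat) over 12 weeks and were 18 weeks of age. WT mice were *Gdf15* fl/fl littermates without Cre, and KO mice carried *Gdf15* fl/fl together with *Ucp1*-Cre, a transgene that expresses Cre recombinase from the *Ucp1* promoter in brown adipocytes. All groups therefore carried the floxed alleles and the diet, and Cre was present only in KO mice, so that an effect of Cre and of the deletion cannot be told apart. Each of the 4 combinations of sex and genotype had 4 mice, with 1 poly-A library per mouse.

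Complement is a cascade of plasma and tissue proteins that tags particles and cells for uptake and lysis. C1q, assembled from the products of *C1qa*, *C1qb* and *C1qc* and made largely by macrophages, recognises the target, and the proteases C1r and C1s attached to it (*C1ra*, *C1s1*) cleave C4 (*C4b*) and C2 to form an enzyme that cleaves C3. Factor D (*Cfd*, also called adipsin) is a protease secreted by adipocytes that cleaves factor B and so drives the alternative pathway, which also acts on C3. C1 inhibitor (*Serping1*) inactivates C1r and C1s. Stromal cells are a known local source of C1r, C1s, C3, C4 and C1 inhibitor, and C3 is also made by adipocytes.

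Levels are given as TPM, a unit in which reads are divided by transcript length and every library is scaled to the same sum, so that levels of different genes can be compared. TPM keeps no read number, and the depth is therefore unknown. Mitochondrially encoded transcripts made up 34.5 to 59.8% of a library, and 58140 to 65746 transcripts per library were above 0. The lowest mitochondrial share, 34.5%, was that of female WT 4. There 1 transcript without a matched symbol held 16.5% of the TPM, while the leading transcript of any other library held at most 9.22%. *Gdf15*, the targeted gene, was at 0.368, 0.690, 1.55 and 3.81 TPM in male WT and at 0.0801 to 0.272 TPM in male KO, which did not overlap. In females it was at 0.0622 to 0.311 TPM in WT, and KO libraries were listed at 0 except for 1 library at 0.0794 TPM. The library names also carry a prefix (5, 8b, 9 or 10) whose meaning is not stated. Among WT mice the prefixes of males and females do not overlap, so that sex and prefix cannot be told apart there. In bulk tissue, fewer cells of a type and less RNA per cell cannot be told apart.

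The promoters of a C1q gene and of the pair with the largest sex difference are shown because the results turn on these components. Of the 9 symbols, 6 matched a RefSeq start site (GRCm38.p6), and each window holds the 250 bases before the start, on the strand of the gene. Capitals mark a match to GAGGAA, the core of sites for the myeloid factor PU.1, or to TTGCNNAA, a pattern of C/EBP factors, which act in adipocytes, liver and myeloid cells. The *C1qb* window is chr4:136886201-136886450 on the minus strand, the *C3* window chr17:57228137-57228386 on the minus strand, and the *Cfd* window chr10:79890603-79890852 on the plus strand.
C1qb: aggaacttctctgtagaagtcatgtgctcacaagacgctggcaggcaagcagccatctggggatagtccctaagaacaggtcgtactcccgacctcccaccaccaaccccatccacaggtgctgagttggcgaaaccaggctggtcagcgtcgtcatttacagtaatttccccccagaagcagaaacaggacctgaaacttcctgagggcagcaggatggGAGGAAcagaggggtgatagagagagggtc
C3: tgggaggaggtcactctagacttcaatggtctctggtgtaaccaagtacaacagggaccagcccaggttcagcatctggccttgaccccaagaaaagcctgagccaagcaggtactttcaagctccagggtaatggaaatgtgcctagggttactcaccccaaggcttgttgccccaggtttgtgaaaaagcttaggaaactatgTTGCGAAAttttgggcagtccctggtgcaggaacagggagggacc
Cfd: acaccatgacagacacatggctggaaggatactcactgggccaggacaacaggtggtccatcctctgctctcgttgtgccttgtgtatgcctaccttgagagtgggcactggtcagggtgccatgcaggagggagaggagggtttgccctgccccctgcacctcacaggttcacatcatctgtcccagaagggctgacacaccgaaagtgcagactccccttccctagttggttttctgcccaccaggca
The GAGGAA of *C1qb* lies 30 to 25 bases before the start, and the C/EBP pattern of *C3*, TTGCGAAA, 45 to 38 bases before it. Among the other matched genes, *C1qc* holds GAGGAA on the opposite strand 193 to 188 bases before its start, and 1 of the *C1s1* windows holds the C/EBP pattern on the opposite strand 242 to 235 bases before. Both strands were also searched for GAAANNGAA (interferon-stimulated response element), TTCNNNGAA (a STAT pattern) and the TATA box motif TATAAA, with no match in the matched genes, and no marked motifs overlap. The *Cfd* window held none of the 5 patterns. Of 32851 RefSeq promoters, 23.3% hold GAGGAA, 9.56% TTGCNNAA, 7.13% GAAANNGAA, 7.02% TTCNNNGAA and 12.4% TATAAA, so that these matches are common and are a description of the sequence only.

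The complement genes covered a wide range of levels. Per transcript length, *Cfd* was the most abundant, with a mean of 955 TPM over the 16 libraries, followed by *C3* at 108 TPM. *Serping1* (20.5 TPM), *C1s1* (19.8 TPM), *C1qb* (15.4 TPM), *C1qa* (13.9 TPM) and *C1qc* (11.8 TPM) formed a middle range with overlapping values. *C4b* (6.33 TPM) and *C1ra* (4.56 TPM) were lowest. *Cfd* alone made up 29.6 to 90.1% of the summed TPM of the 9 genes. It was also the most variable of the 9, with a 46.8-fold range between libraries, against 1.69-fold for *C1s1* and 1.86-fold for *C1ra*.

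**Figure D1:**
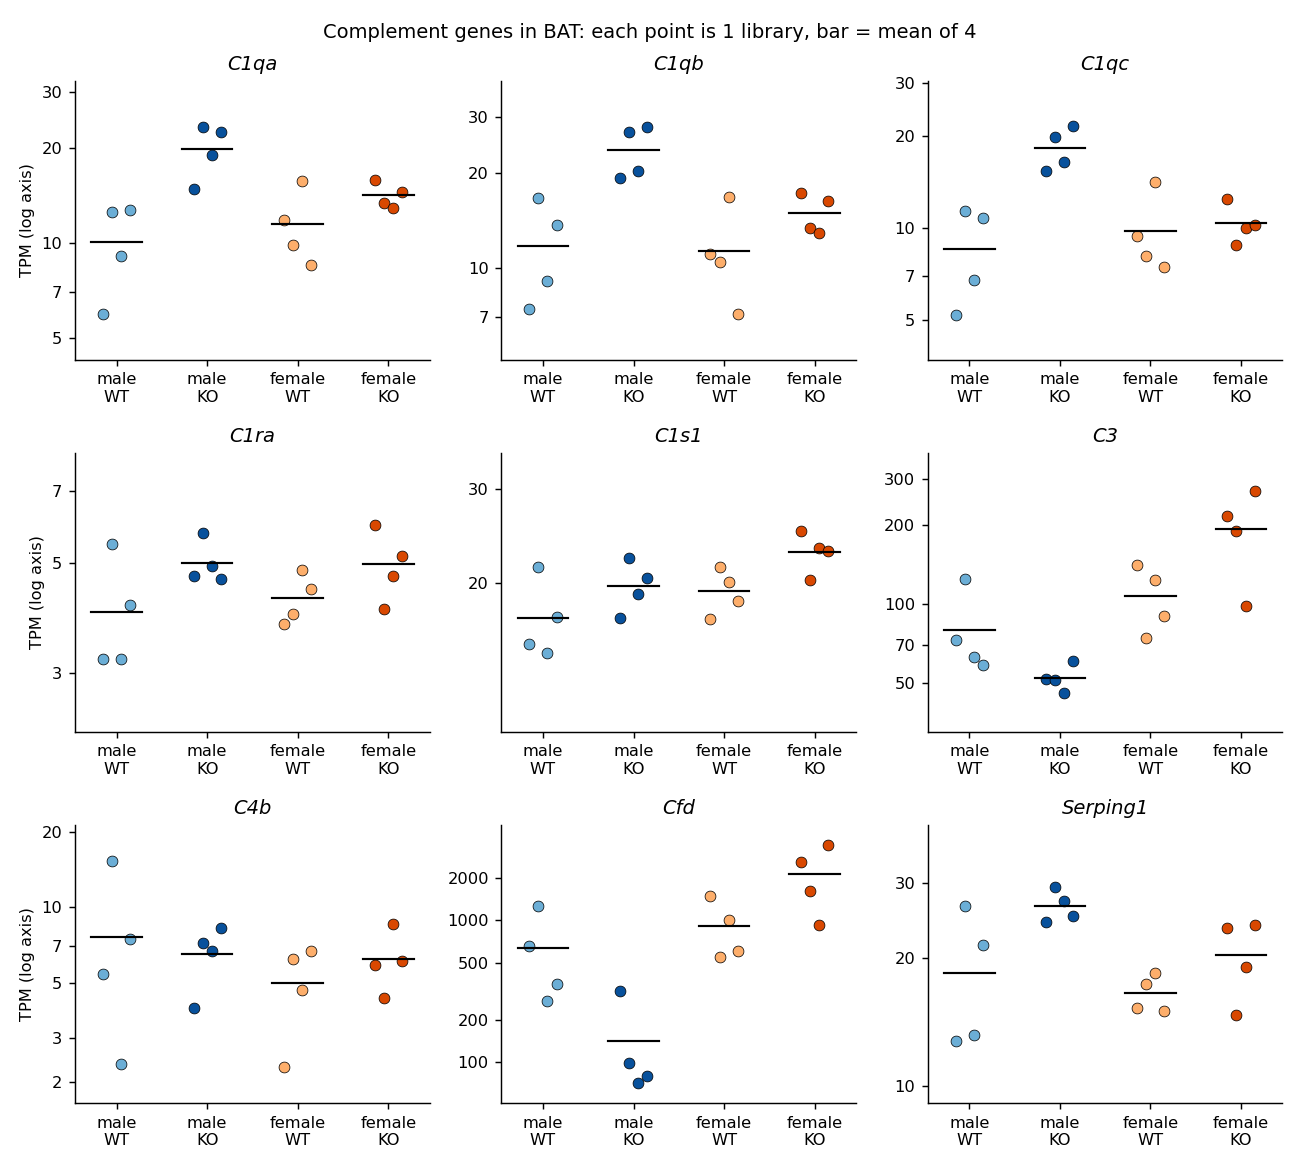
TPM of the 9 complement genes (log axes, 1 panel per gene) in each library by sex and genotype, with points for single libraries and bars for the mean of 4. The 4 male KO libraries lie above all male WT libraries for C1qa, C1qb and C1qc, while Cfd is lowest in male KO (72.1 to 318 TPM) and highest in female KO (925 to 3378 TPM).

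In males, the 3 C1q genes were about 2-fold higher in KO than in WT BAT, *Serping1* was 1.44-fold higher by the ratio of means, and *Cfd* and *C3* were lower. No complement gene passed an adjusted p of 0.05 in the test across all genes. *C1qa*, the A chain of C1q, measured 5.96, 12.5, 9.10 and 12.7 TPM in the 4 male WT libraries and 14.8, 23.2, 18.9 and 22.4 TPM in male KO. *C1qb*, the B chain, measured 7.41, 16.6, 9.08 and 13.7 TPM in male WT and 19.2, 26.9, 20.3 and 27.9 TPM in male KO. *C1qc*, the C chain, measured 5.21, 11.4, 6.80 and 10.8 TPM in male WT and 15.4, 19.9, 16.6 and 21.7 TPM in male KO. Every male KO library was above every male WT library for each of these genes, and male WT 1 was the lowest of the 16 libraries for *C1qa* and *C1qc*.

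The comparison used limma and the scale log2(TPM + 0.5), which understates changes of low genes. The male log2 fold changes were 0.98 (SE 0.24, limma adjusted p = 0.166) for *C1qa*, 1.03 (SE 0.25, limma adjusted p = 0.164) for *C1qb* and 1.11 (SE 0.24, limma adjusted p = 0.146) for *C1qc*. For each of these genes the exact two-sided permutation test gave p = 0.0286, the smallest value that 4 against 4 libraries allow. Over all genes tested in males, 0.00821% passed the adjusted threshold, 17.7% were higher at an unadjusted p under 0.05 and 9.54% had every KO library above every WT library. Within the libraries of prefix 9, 2 WT and 3 KO mice, the male log2 difference was 0.96 for *C1qa*, 1.12 for *C1qb* and 1.12 for *C1qc*. Over all tested genes the male log2 fold changes had a median of 0.16, and 0.01 after rescaling by median-of-ratios factors, under which the C1q genes remained at 0.82 to 0.95.

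The macrophage markers moved with C1q. The summed TPM of 12 macrophage markers was 31.4 to 58.5 in male WT and 74.6 to 108 in male KO, and of the 9 of them that could be tested in males 9 had values above 0 and 6 had an unadjusted p under 0.05, beside 79.9% and 18.7% of all genes, with 0 past the adjusted threshold. *Lyz2*, lysozyme of myeloid cells, had a log2 fold change of 1.12 (SE 0.23) and *Cd68*, a lysosomal macrophage protein, of 1.19 (SE 0.27). The ratio of the summed C1q TPM to the summed marker TPM was 0.591 to 0.724 in male WT and 0.663 to 0.676 in male KO. It stayed between 0.579 and 0.759 in all 16 libraries, so the C1q sum and the marker sum differed between male groups by about the same factor. *Lyz2* made up most of the marker sum in males, at a mean of 29.0 TPM in WT and 62.4 TPM in KO. The part of macrophage number in the C1q difference was not tested.

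*Cfd* differed in the opposite direction in males. It measured 658, 1259, 273 and 354 TPM in male WT and 318, 99.3, 72.1 and 80.5 TPM in male KO. The KO libraries 2, 3 and 4 were below all male WT libraries, while male KO 1 lay between the WT values. The mean was 4.46-fold lower in KO, with a log2 fold change of -2.19 (SE 0.58, limma adjusted p = 0.173) and an exact permutation p of 0.0571. *C3*, the protein on which both pathways converge, measured 73.3, 125, 62.9 and 58.6 TPM in male WT and 51.6, 51.2, 45.6 and 60.7 TPM in male KO. Here too 3 of 4 KO libraries were below all WT libraries, and the log2 fold change was -0.55 (SE 0.23, limma adjusted p = 0.249, exact permutation p = 0.0571). In males 1.07% of all genes were lower at an unadjusted p under 0.05, and 0.673% had every KO library below every WT library, which neither *Cfd* nor *C3* did. Within prefix 9 the male log2 difference was -1.90 for *Cfd* and -0.22 for *C3*. Without male WT 2, the library with the highest male *Cfd* and *C3*, the log2 fold changes were -1.77 and -0.31.

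Of the 9 adipocyte markers none had a male log2 fold change as low as that of *Cfd*. Their summed TPM was 9227 to 11473 in male WT and 9791 to 10394 in male KO. *Fabp4*, a fatty acid carrier, and *Plin1*, a lipid droplet protein, had male log2 fold changes of -0.09 (SE 0.11) and 0.36 (SE 0.13). *Adipoq*, which encodes adiponectin, had a male log2 fold change of -0.14 (SE 0.12), and the ratio of *Cfd* to *Adipoq* TPM was 0.547 to 1.98 in male WT and 0.146 to 0.610 in male KO. Of the 8 brown adipocyte markers, 7 had male values below 0 and 1 above 0, with a median of -0.08. Of all genes 79.9% were above 0. At an unadjusted p under 0.05 was 1 of the 8, beside 18.7% of all genes, and 0 passed the adjusted threshold. *Ucp1*, the uncoupling protein of brown adipocytes, was the marker above 0, with a male log2 fold change of 0.05 (SE 0.12). *Cox8b*, the next most abundant, averaged 3446.5 TPM in male WT and 3134.2 TPM in male KO. The adipokine genes *Retn* and *Lep* had values of -0.93 (SE 0.60) and 1.03 (SE 0.41), and neither passed the adjusted threshold.

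The stromal components differed less. *Serping1* measured 12.7, 26.5, 13.2 and 21.5 TPM in male WT and 24.3, 29.5, 27.2 and 25.2 TPM in male KO. The KO libraries were similar to each other and 2 of them were above all WT libraries, while male WT 2 lay inside the KO range. Its log2 fold change was 0.57 (SE 0.23, limma adjusted p = 0.239). *C1ra* and *C1s1*, the proteases of C1, ranged from 3.20 to 5.46 and from 14.8 to 21.4 TPM in male WT and from 4.64 to 5.75 and from 17.2 to 22.3 TPM in male KO, with log2 fold changes of 0.32 (SE 0.16) and 0.20 (SE 0.14). *C4b* was the most scattered, at 5.41, 15.2, 2.36 and 7.47 TPM in male WT against 3.96 to 8.24 TPM in male KO, with a log2 fold change of 0.01 (SE 0.46) whose sign turned with the scaling. Over the 12 fibroblast markers the summed TPM was 294 to 581 in male WT and 526 to 640 in male KO. Of 11 tested, 1 passed the adjusted threshold in males, *Mfap5*, a microfibril protein. Over all genes 1 of 12177 passed in males, so that *Mfap5* was the only call. The most abundant of them, *Gsn* and *Col3a1*, had log2 fold changes of 0.18 (SE 0.24) and 0.97 (SE 0.20). The part of stromal cell number in these values was not tested. In all, 7 of the 9 complement genes had male values above 0, as did 79.9% of all genes, and their median log2 fold change was 0.32, beside 0.16 for all genes. At an unadjusted p under 0.05, 4 were higher and 2 lower, beside 17.7% and 1.07% of all genes, and 0 passed the adjusted threshold of limma.

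In females, KO libraries had higher levels of *Cfd* and *C3*, and the C1q genes overlapped between genotypes. No complement gene passed the adjusted threshold of limma and 2 had an unadjusted p under 0.05. *Cfd* measured 1493, 553, 1004 and 612 TPM in female WT and 2583, 1616, 925 and 3378 TPM in female KO. The KO libraries 1, 2 and 4 were above all female WT libraries, and female KO 3 lay inside the WT range. The mean was 2.32-fold higher in KO, with a log2 fold change of 1.17 (SE 0.44, limma adjusted p = 0.255, exact permutation p = 0.114). *C3* followed the same order of libraries, with 142, 74.5, 123 and 90.5 TPM in female WT and 216, 190, 98.8 and 270 TPM in female KO. Its log2 fold change was 0.80 (SE 0.32, limma adjusted p = 0.268, exact permutation p = 0.0857), again with 3 of 4 KO libraries above all WT libraries.

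Over all genes tested in females, 0% passed the adjusted threshold, 11.6% were higher at an unadjusted p under 0.05 and 4.9% had every KO library above every WT library, which no complement gene had. Female libraries of prefix 10 (1 WT and 1 KO) differed by 0.79 for *Cfd* and 0.61 for *C3* on the log2 scale, and those of prefix 8b (3 WT and 1 KO) by 0.41 and 0.07. With the prefix as a covariate the female log2 fold changes were 0.56 for *Cfd* and 0.29 for *C3*. The summed TPM of the 9 adipocyte markers was 6691 to 9403 in female WT and 7996 to 11692 in female KO. Of these markers 5 had female values above 0 and 4 below. The 8 brown adipocyte markers summed to 6065 to 10185 TPM and 7436 to 12271 TPM. All 8 were above 0, as were 62.7% of all genes, with a median of 0.40 beside 0.10. In both lists 0 had an unadjusted p under 0.05, beside 17.1% of all genes. Single female values were 0.22 (SE 0.23) for *Adipoq*, 0.38 (SE 0.21) for *Retn* and -1.98 (SE 0.97) for *Lep*. The ratio of *Cfd* to *Adipoq* was 1.14 to 2.17 in female WT and 1.88 to 4.40 in female KO.

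The C1q genes of female WT and KO libraries overlapped throughout. *C1qa* was at 11.8, 9.86, 15.7 and 8.47 TPM in female WT and at 12.9 to 15.8 TPM in female KO, *C1qb* at 7.18 to 16.7 and 12.9 to 17.3 TPM, and *C1qc* at 7.50 to 14.2 and 8.81 to 12.5 TPM. In each gene female WT 3 was among the 2 highest WT and KO libraries of that sex, and female WT 4 was the lowest. The female log2 fold changes were 0.32 (SE 0.18) for *C1qa*, 0.43 (SE 0.23) for *C1qb* and 0.11 (SE 0.20) for *C1qc*. They moved with single libraries, to 0.20, 0.24 and 0.0041 without female WT 4 and to 0.48, 0.63 and 0.30 without female WT 3. Female WT 4 is the library in which 1 unmatched transcript held 16.5% of the TPM, and the part of this in its low values was not tested. The summed macrophage markers were at 36.8 to 80.6 TPM in female WT and 46.7 to 74.2 TPM in female KO. *Serping1* and *C1s1* had log2 fold changes of 0.27 (SE 0.17) and 0.24 (SE 0.12). In *Serping1* 3 of 4 female KO libraries were above all WT libraries and female KO 2, at 14.7 TPM, was below all of them, and in *C1s1* 3 were above and female KO 2 lay inside the WT range. *C1ra* and *C4b* had values of 0.20 (SE 0.14) and 0.35 (SE 0.30). All 9 female values were above 0, as were 62.7% of all genes, with a median of 0.32 beside 0.10 for all genes, and with median-of-ratios scaling each stayed above 0.

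**Figure D2:**
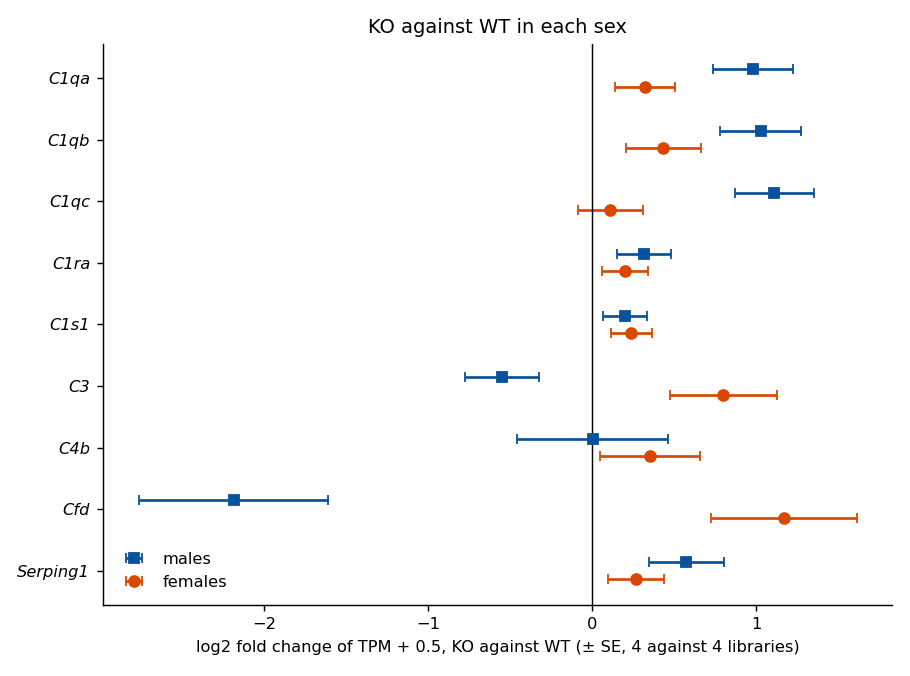
Log2 fold change of TPM + 0.5, KO against WT, for each complement gene in males (squares) and females (circles), with bars of 1 SE from limma on 4 against 4 libraries. The C1q genes lie near 1 in males and between 0.11 and 0.43 in females, and Cfd and C3 lie below 0 in males and above 0 in females.

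Whether KO acted differently in males and females was tested with an interaction term in the model of all 16 libraries. The interaction was 3.36 (SE 0.79) for *Cfd*, 1.35 (SE 0.42) for *C3* and -1.001 (SE 0.33) for *C1qc* on the log2 scale, as female minus male, with limma adjusted p of 0.215, 0.218 and 0.222. Over all genes 0% passed the adjusted threshold of this test, 2.51% were higher and 11.7% lower at an unadjusted p under 0.05, and 3 of the 9 complement genes, those named, had such a p. With median-of-ratios scaling the split over all genes was 1131 higher of 2268 in place of 306 of 1737, and the 3 values kept their direction. For *C1qa* and *C1qb* the interaction was -0.66 (SE 0.32) and -0.59 (SE 0.36), and for *C1ra*, *C1s1*, *C4b* and *Serping1* between -0.31 and 0.35.

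As a mean over both sexes, *C1qa* and *C1qb* were higher in KO and passed the threshold. Their log2 changes were 0.65 (SE 0.16, limma adjusted p = 0.0424) and 0.73 (SE 0.18, limma adjusted p = 0.0427), and *C1qc* had 0.61 (SE 0.16, limma adjusted p = 0.0544). Of all genes tested 2.95% passed, 317 of 360 of them higher, or 260 of 473 with median-of-ratios scaling. Both calls were lost with the library prefix as a covariate (limma adjusted p = 0.222 for each), without mitochondrial transcripts (limma adjusted p = 0.0618 and 0.0677), with no TPM minimum (limma adjusted p = 0.104 and 0.108) and with a block on the replicate number (limma adjusted p = 0.0812 and 0.0814). They were also lost when male WT 1 or 3, male KO 2, 3 or 4, female WT 2 or 4, or female KO 1 or 4 was left out, and *C1qb* when male KO 1 was. Without male WT 2, 6 complement genes passed. *Cfd*, with changes of opposite sign in the sexes, had a mean log2 change of -0.51 (SE 0.39).

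Between the sexes, *Cfd* and *C3* were higher in females. *Cfd* was at 553 to 3378 TPM in the 8 female libraries and at 72.1 to 1259 TPM in the 8 male libraries, and *C3* at 74.5 to 270 TPM and 45.6 to 125 TPM. In both genes 4 of 8 female libraries were above all male libraries, namely female WT 1 and female KO 1, 2 and 4. Among WT mice the sexes overlapped, with *Cfd* at 273 to 1259 TPM in males and 553 to 1493 TPM in females. *C3* was at 58.6 to 125 TPM in male WT and 74.5 to 142 TPM in female WT. Among KO mice the sexes did not overlap in either gene. The female minus male log2 differences, averaged over the genotypes, were 2.34 (SE 0.39, limma adjusted p = 0.00614) for *Cfd* and 1.12 (SE 0.21, limma adjusted p = 0.0105) for *C3*, and both passed with the library prefix as a covariate (limma adjusted p = 0.0298 and 0.0172) and with each library left out in turn. By genotype, the mean *Cfd* level was 1.44-fold higher in female than in male WT mice. It was 14.9-fold higher in female than in male KO mice. For *C3* the factors were 1.34 and 3.71. None of the other 7 complement genes passed this test. Of all genes 4.47% did, 71 of 546 of them higher in females, or 170 of 457 with median-of-ratios scaling.

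Of the library means of the component classes, only that of the C1q genes separated KO from WT in males, and none did in females. The mean log2(TPM + 0.5) of the C1q genes was 3.33 ± 0.50 (SD, n = 4) in male WT, 4.37 ± 0.25 (SD, n = 4) in male KO, 3.46 ± 0.41 (SD, n = 4) in female WT and 3.75 ± 0.17 (SD, n = 4) in female KO. For the 5 stromal components the class means were 3.89 ± 0.48, 4.01 ± 0.15, 3.94 ± 0.12 and 4.31 ± 0.21 in the same order (SD, n = 4 each). The stromal mean of male KO libraries, 3.80 to 4.14, lay inside that of male WT, 3.42 to 4.55, and it joined *C3*, which was lower in male KO, with *Serping1*, which was higher. For *Cfd* the means were 9.06 ± 0.98, 6.87 ± 0.98, 9.72 ± 0.66 and 10.9 ± 0.82 (SD, n = 4 each), and the male groups overlapped. The ratio of *Cfd* TPM to the summed C1q TPM joined the opposite male changes. It was 35.4, 31.1, 10.9 and 9.54 in male WT, 6.44, 1.42, 1.29 and 1.12 in male KO, 19.5 to 46.3 in female WT and 25.8 to 82.3 in female KO. This ratio restates the 2 male differences and is no further result. The C1q genes made up 2.36 to 7.42% of the summed complement TPM in male WT and 10.5 to 26.5% in male KO. That share also moves with *Cfd*, which made up 69.2 to 84.3% of the sum in male WT and 29.6 to 67.8% in male KO.

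Across the 16 libraries the complement genes fell into sets that varied together. All 36 pairs were compared on the log2 scale with a permutation test of 100000 resamples, whose smallest p is 1e-05. The 3 C1q pairs had Pearson r of 0.956 to 0.959 and Spearman rho of 0.921 to 0.976, each with a permutation p of 1e-05, adjusted 7.2e-05 for r and 9e-05 for rho, and r of 0.936 to 0.951 after the group means were removed. In their TPM ratios, *C1qb* to *C1qa* was 0.847 to 1.33 and *C1qc* to *C1qa* 0.661 to 1.03. *Cfd* and *C3* had r of 0.911 and rho of 0.959 (permutation p = 1e-05, adjusted 7.2e-05 and 9e-05), r of 0.878 without the 2 libraries farthest from the median of *C3*, 0.762 after the group means were removed and 0.927 within the 6 libraries of prefix 9. It was 0.805 over the 8 males and 0.980 over the 8 females. *Serping1* varied with the C1q genes (r of 0.821 to 0.881, and 0.696 to 0.773 after the group means were removed) and with *C1ra* (r of 0.849, rho of 0.800, permutation p of 4e-05 and 0.00029, adjusted 0.000206 and 0.00149). *C1ra* and *C1s1* had r of 0.811 and rho of 0.729 (permutation p = 0.00012 and 0.00187, adjusted 0.00048 and 0.00748), and *C1s1* was 3.65 to 5.45 times *C1ra* in TPM. *Cfd* and the C1q genes had r of -0.73 to -0.62 over the males and 0.455 to 0.730 over the females, and between 0.03 and 0.27 with group means removed.

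**Figure D3:**
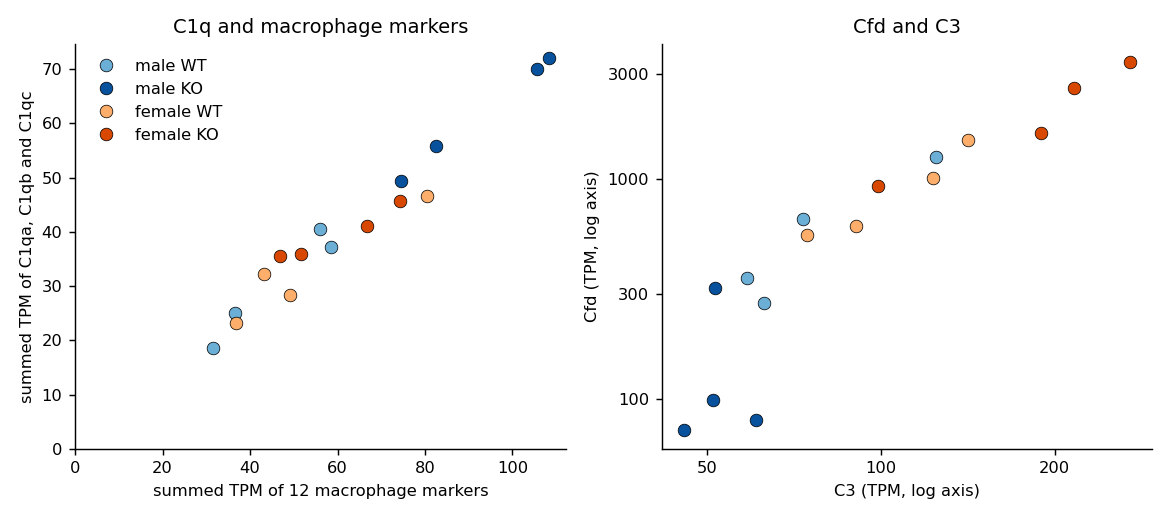
Left, summed TPM of C1qa, C1qb and C1qc against the summed TPM of 12 macrophage markers. Right, Cfd against C3 in TPM on log axes, both with 1 point per library. The C1q sum rises with the marker sum from 18.6 TPM in male WT 1 to 72.0 TPM in male KO 4, and Cfd rises with C3, with 3 male KO libraries lowest and 3 female KO libraries highest in Cfd.

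The genes whose pattern was most like each component are given by Pearson r over the 16 libraries among 12201 genes, as a description. For *C1qa* these were *Cxcl16*, a chemokine (0.947), *Fstl1*, a secreted glycoprotein (0.946), and *Cd68* (0.939). For *Cfd* they were *Cyp2e1*, a cytochrome P450 (0.933), *Slc1a3*, a glutamate transporter (0.927), and *Gm10032* (0.920). *Cyp2e1* averaged 11.8 TPM in male WT, 2.04 in male KO, 9.66 in female WT and 65.2 in female KO. For *C3* they were *AC153155.2* (0.951), *Pde3a*, a phosphodiesterase (0.947), and *Hsd17b14*, a hydroxysteroid dehydrogenase (0.946), and for *C1s1* *Mkrn1* (0.839) and the interferon-inducible genes *Oas1a* (0.820) and *Ifi204* (0.815).

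The transcripts behind these sums differed in kind. *C1qa*, *C1qb* and *C1ra* were each represented by 1 transcript, and *C1qc* and *Serping1* almost wholly by 1. *Cfd* was split between Cfd-201 (60.4 to 74.2% of its TPM) and Cfd-202, which are of similar length. In *C3*, the full-length C3-201 held 62.1 to 93.3% and C3-203, a short protein-coding model of 554 bases, 3.76 to 37.9%. C3-201 averaged 92.5 TPM in female WT and 134 TPM in female KO, and C3-203 averaged 12.9 and 58.8 TPM, so that part of the female *C3* difference lay in the short model. *C4b* had 15.3 to 51.3% in a retained-intron model, and with protein-coding transcripts only its female log2 fold change was -0.13 in place of 0.35. *C4b* has a near-identical neighbour, *C4a* (group means 0.946 to 1.33 TPM), and reads may be split between them uncertainly, as also between *C1ra* and *C1rb* or *C1s1* and *C1s2*, whose copies were at or near 0. Liver makes most plasma complement, and the liver transcript *Alb* was highest in male WT 1 (15.3 TPM), female WT 1 (13.7 TPM) and female KO 2 (11.1 TPM). *Alb* was 0.196 TPM in female KO 4, the library with the highest *C3* and *Cfd*. The 3 libraries with the highest *Alb* had *C3* at 73.3, 142 and 190 TPM in the same order. The part of liver RNA in the complement values was not tested. The summed TPM of 6 skeletal muscle markers varied most, from 0.478 to 3345 over the 16 libraries, with overlapping groups.

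The other genes of the pathway were read from 5 lists. In the classical and lectin list, 3 of 14 genes could be tested in males and 4 in females, and 0 passed the adjusted threshold in either sex, with 0 at an unadjusted p under 0.05. *C2*, the partner of C4, had log2 fold changes of -0.19 (SE 0.19) in males and -0.18 (SE 0.21) in females, *Colec12*, a scavenger receptor, 0.29 (SE 0.15) in males, and *C4a* 0.34 (SE 0.26) in females. In the alternative list *Cfp*, properdin, which stabilises the C3-cleaving enzyme, had 0.54 (SE 0.13) in males and 0.43 (SE 0.20) in females, and its mean over both sexes, 0.49 (SE 0.12, limma adjusted p = 0.0444), passed. *Cfb*, the substrate of factor D, had 0.20 (SE 0.35) and -0.11 (SE 0.28). Of the terminal list only *C8g* (8.61 TPM) passed the TPM minimum, with log2 fold changes of 0.02 (SE 0.12) in males and -0.15 (SE 0.28) in females, and *Hc*, *C6*, *C8a*, *C8b* and *C9*, which form the lytic complex, had means of 0.0851 TPM or less.

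Among the receptors, 7 of 13 were tested in males, and all 7 had values above 0, as did 79.9% of all genes. Of these, 3 had an unadjusted p under 0.05, against 17.7% of all genes that were higher at such a p, and 0 passed the adjusted threshold. *Itgb2*, the beta chain shared by the integrin complement receptors, had 0.91 (SE 0.29) and *C5ar1*, the C5a receptor, 0.80 (SE 0.27). In females 6 receptors were tested, 2 had an unadjusted p under 0.05, *Cd93*, a glycoprotein of endothelial and myeloid cells, with 0.45 (SE 0.13) and *Lrp1*, an endocytic receptor, with 0.46 (SE 0.20), and 0 passed. Of all genes 11.6% were higher at such a p in females. *Cd93* passed as a mean over both sexes, at 0.50 (SE 0.12, limma adjusted p = 0.0449). The summed TPM of 6 endothelial markers was 129 to 248 in male WT, 202 to 234 in male KO, 126 to 170 in female WT and 197 to 372 in female KO. The most abundant of them, *Cdh5* and *Pecam1*, had female log2 fold changes of 0.85 (SE 0.23) and 0.70 (SE 0.22). The part of endothelial cells in the *Cd93* value was not tested. Of 6 inhibitors tested in each sex, 0 passed in either sex. The fluid-phase inhibitors *Clu* and *Vtn* had 0.92 (SE 0.23) and 0.70 (SE 0.24) in females, the 2 with an unadjusted p under 0.05 there, and none had such a p in males, where *Cd59b* and *Clu* had the smallest p, at 0.20 (SE 0.10) and 0.50 (SE 0.28). *Cd59a*, which blocks the lytic complex on cell surfaces, was lower in females by sex, at -0.37 (SE 0.09, limma adjusted p = 0.0331). The *Cfp*, *Cd93* and *Cd59a* calls did not hold under many alternatives. With the library prefix as a covariate the limma adjusted p was 0.205, 0.219 and 0.417, and with no TPM minimum 0.108, 0.104 and 0.0555. With a block on the replicate number *Cfp* and *Cd93* were lost (limma adjusted p = 0.0698 and 0.0796), with median-of-ratios scaling *Cfp* and *Cd59a* (0.0727 and 0.0649), and without mitochondrial transcripts *Cd59a* (0.118). When 1 of the 16 libraries was left out at a time, *Cfp* was lost in 11 cases, *Cd93* in 12 and *Cd59a* in 10, with limma adjusted p up to 0.0965, 0.102 and 0.0868. Over the lists the median log2 fold change lay between 0.02 and 0.37 in males and between -0.15 and 0.22 in females, beside 0.16 and 0.10 for all genes.

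**Figure D4:**
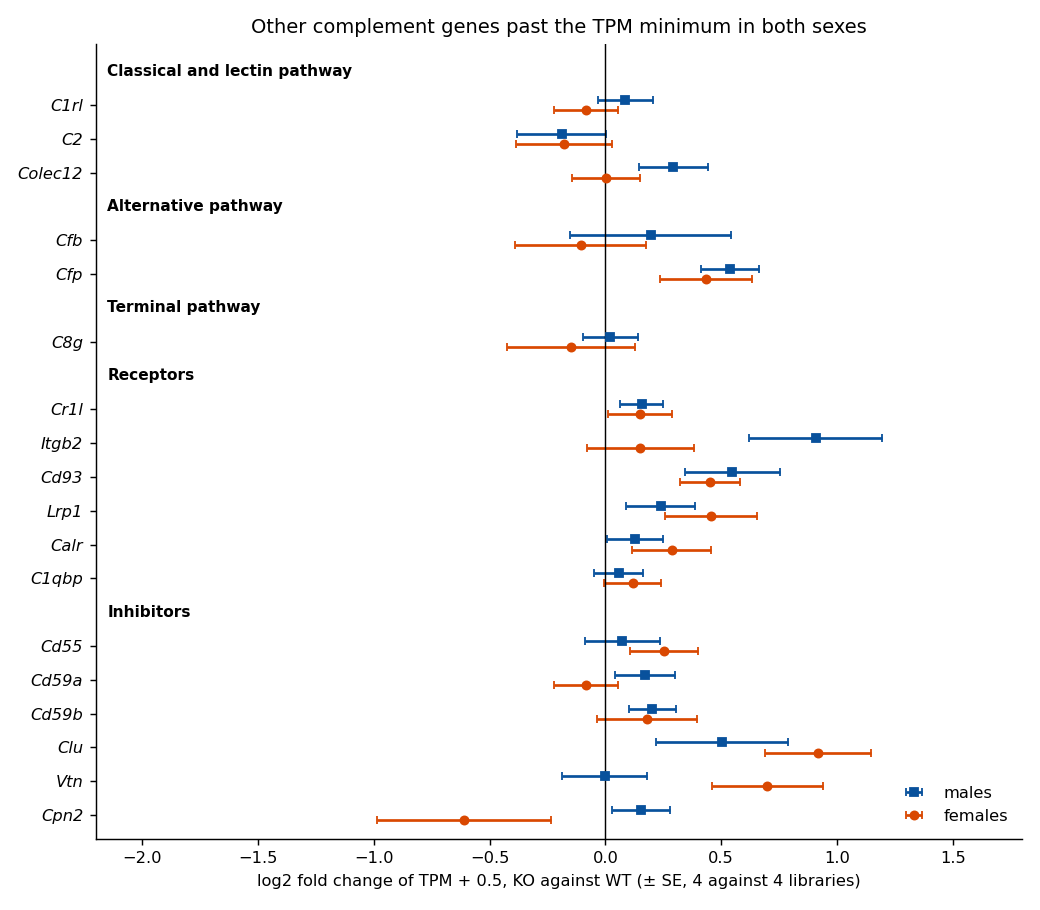
Log2 fold change of TPM + 0.5, KO against WT, with bars of 1 SE, for the 18 other complement genes that passed the TPM minimum in both sexes, grouped by list, in males (squares) and females (circles). No gene passed the adjusted threshold in either sex, and the values furthest from 0 are Itgb2 in males (0.91) and Clu in females (0.92).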

How the data were processed

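BAT RNA from 16 mice was sequenced as stranded poly-A libraries, single-end. Per the submitters' processing notes the authors quantified transcripts with kallisto 0.46.2 and the notes name GRCm39. The transcript release is not given in the sources used here. The authors deposited TPM per transcript, scaled to a sum of 1000000. The study's own test needs counts and was not run. Identifiers were matched to GENCODE mouse M21 without versions (135051 of 137438) and summed by symbol. Sequences are from RefSeq, and coordinates are GRCm38.p6.

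Groups came from the labels. KO and WT were compared with limma 3.58.1 in R 4.3.3 (lmFit, eBayes with trend) on log2(TPM + 0.5) where a gene averaged 1 TPM or more, Benjamini-Hochberg adjusted over all genes, at a threshold of 0.05. Single genes were tested with exact two-sided permutation tests and pairs with permutation tests (SciPy 1.17.1). The fit was tested on simulated data. Replicates are separate mice, and depth is unknown, so precision is given by the spread between mice.

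As alternatives, the pseudocount was set to 1 or 0.1 and the TPM minimum dropped or set to 5. Others were median-of-ratios scaling, removal of mitochondrial transcripts, protein-coding transcripts only, eBayes without trend, a block on the replicate number, the library prefix as a covariate, all 16 libraries in 1 fit, and leaving out each library. All 9 complement genes are named, as are pathway-list genes that passed or had the 2 smallest p of a list in a sex, the 2 most abundant genes of a marker list shown, and the 3 genes most like *C1qa*, *C1s1*, *C3* and *Cfd*. *Adipoq*, *Retn*, *Lep*, *Mfap5*, *Trem2* and *Mertk* were picked with their values in view. The complement genes and lists were chosen with earlier results of these data known.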

Additional observations from a re-analysis of the deposited data

Results flagged for a closer look

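The KO effect differed between the sexes at an unadjusted p under 0.05 for 3 complement genes, by a limma interaction over all 16 libraries, and none passed the adjusted threshold. For *Cfd* the female minus male difference of the log2 KO effect was 3.36 (limma adjusted p = 0.215), with KO below WT in males and above WT in females. For *C3* it was 1.35 (limma adjusted p = 0.218), in the same directions. For *C1qc* it was -1.001 (limma adjusted p = 0.222), with the larger value in males. Of all genes, 1737 of 12210 had an unadjusted p under 0.05 in this test. In the 36 combinations of a complement gene and a group, no library stood apart by Dixon's ratio at its 95% critical value.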

How the results depend on the processing

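The number of complement genes called stayed at 0 in males, 0 in females, 0 for the difference between sexes and 2 for the sex difference under every alternative run. For the mean KO effect, 2 genes were called, and 0 with no TPM minimum, without mitochondrial transcripts, with the library prefix as a covariate or with a block on replicate number. It was between 0 and 6 when single libraries were left out. The cause was not tested. Over all genes, 360 passed for the mean KO effect, against 54 with no TPM minimum, 12 with the prefix, 60 with the replicate block and 720 with protein-coding transcripts only, and 546 passed for sex, against 262 with no TPM minimum, 303 without mitochondrial transcripts and 93 with the prefix. After each group mean was removed, same-numbered WT and KO libraries correlated between -0.117 and 0.349. The labels do not state whether the numbers pair the mice, and these values cannot decide it. The block left *C1qa* and *C1qb* at 0.65 and 0.73 (limma adjusted p = 0.0812 and 0.0814), and *Cfp* and *Cd93* then had limma adjusted p of 0.0698 and 0.0796. It changed no other call of the 9 genes.

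Signs turned for the results below, none of which was called. *C4b* in males was -0.0096 with a pseudocount of 1, -0.15 with median-of-ratios scaling and -0.084 without mitochondrial transcripts, and with protein-coding transcripts only *C4b* was -0.13 in females and -0.32 for the difference between sexes, where *C1s1* was -0.029. *C3* as a mean KO effect was -0.0052 with median-of-ratios scaling and -0.049 with the prefix, *C1qa* by sex 0.039 with the prefix, and *C1ra* by sex -0.0024 without mitochondrial transcripts and -0.0095 with the prefix. With single libraries left out, *C4b* ran from -0.41 to 0.41 in males, from -0.028 to 0.38 as a mean and from -0.057 to 0.76 between sexes, and *C1s1* from -0.070 to 0.10 between sexes. The mean male KO change of the 5 stromal components, 0.11, was -0.047 with median-of-ratios scaling and 0.39 with the prefix, and ran from -0.048 without male WT 3 to 0.33 without male WT 2. The other class means kept their sign.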

Other observations

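Some genes under the TPM minimum differed by group and are named here after their values were seen, with no test. *C7*, of the terminal pathway, was at 0.419 to 1.35 TPM in the 8 male libraries and at 0.108 to 0.348 TPM in the 8 female libraries. *C3ar1*, the receptor for C3a, averaged 0.409 TPM in male WT, 1.09 in male KO, 0.456 in female WT and 0.350 in female KO.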
